A study of Mus musculus with 6 samples.

Results

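The genes described here encode the enzymes and transporters of glycolysis, the pentose phosphate pathway and glycogen storage, the kinases that control pyruvate dehydrogenase, and 3 proteins of the hypoxia response. The set was defined by gene symbol and holds 38 genes, of which 36 had a probe set annotated with their symbol alone, out of 18193 such genes on the array. Each gene was read from 1 probe set, the brightest by mean signal over the 6 arrays, a probe set being several short probes against the same transcript. Gpi1 and G6pdx were not analysed here. All 36 genes were above the background floor on at least 1 array and were tested.

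Expression was compared between pRb-expressing and pRb-deficient MC3T3 osteoblasts, bone-forming cells taken from the calvariae of mice at embryonic day 18.5. Both kinds were immortalized by the 3T3 passage protocol, so no group here consists of primary cells. The pRb-expressing cells carry the genotype label Wild type and the pRb-deficient cells the label Rb Knockout. The animals were F2 offspring of a cross between flox19-RB1 mice, maintained on C57BL/6, and mice with the 2.3- and 3.6-Col1a1-Cre transgenes, in which the promoter of a collagen I gene drives the recombinase in osteoblasts. The labels do not say which of these transgenes, if any, each line carried. RNA of 3 cultures per genotype was hybridized, and although the labels call them biological replicates, nothing says that they came from separate animals or lines. The p-values therefore measure the spread between these cultures, and line of origin and pRb status cannot be told apart.

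Glycolysis splits glucose into pyruvate, which is either reduced to lactate and exported or oxidized in the mitochondrion through pyruvate dehydrogenase. The pentose phosphate pathway branches off after the first step and yields NADPH and the ribose of nucleotides. In low oxygen the transcription factor HIF-1 escapes destruction and raises many glycolytic genes. Osteoblasts are known to rely on glycolysis, and pRb, the retinoblastoma protein, is a repressor of the cell cycle.

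The groups differed over a large part of the array. Signals are MAS5 intensities on a linear scale, set to 32 where lower, and were tested as log2 values with limma, with p adjusted over all 38427 probe sets tested. Of the 16308 genes tested, 41.9% passed at an adjusted p under 0.05, 18.5% with a higher and 23.4% with a lower signal in pRb-deficient cultures, and the signals of the 2 groups did not overlap in 52.4%. Rb1, the gene of pRb, had signals of 1124, 1119 and 1106 in the pRb-expressing and 143, 127 and 124 in the pRb-deficient cultures. The place of this probe set relative to the deleted part of the gene was not examined. All 5 measured osteoblast markers were lower in pRb-deficient cultures. The bone sialoprotein gene Ibsp was at or below 32 on all pRb-deficient arrays, whereas the collagen gene Col1a1 remained between 8616 and 13388 there. Xist, the RNA that coats an inactive X chromosome, was at 176, 159.7 and 167 in pRb-expressing and 12296, 10939 and 9658 in pRb-deficient cultures.

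In pRb-deficient cultures the test found 14 of the 36 genes (38.9%) higher and 7 (19.4%) lower, with 15 not past the threshold. The groups did not overlap in 24 of the 36 (66.7%). The median log2 fold change, given throughout as pRb-deficient over pRb-expressing, was 0.21 over the 36 genes and −0.09 over all genes tested. Genes that passed were found at every step except glycogen storage, and most steps held genes of both directions. All 3 hypoxia genes were higher, none of the 3 glycogen genes passed, and 3 of 5 genes for pyruvate dehydrogenase and its kinases were lower. Over all genes tested, 18.5% were higher, 23.4% lower and 52.4% without overlap, and groups of 3 to 5 genes are too small to compare with these shares. Signals in the text are listed in the order of replicates 1, 2 and 3, and where 2 groups of values are set against each other the pRb-expressing cultures come first. In RNA from whole cultures, fewer cells of a type and less RNA per cell cannot be told apart.

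**Figure D1:**
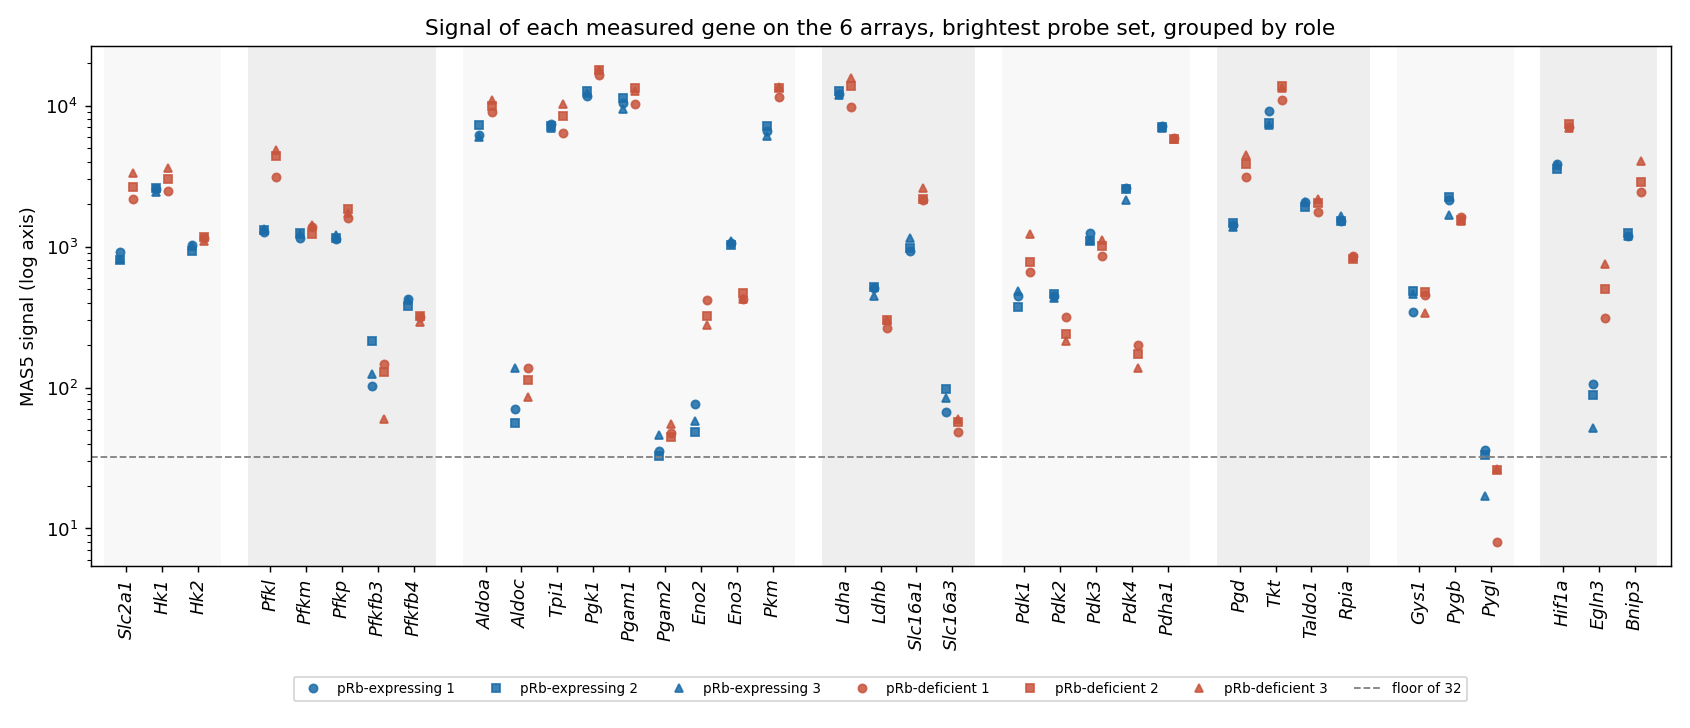
MAS5 signal of each of the 36 measured genes on a log axis, 1 point per array, with pRb-expressing cultures in blue, pRb-deficient cultures in red and the floor of 32 as a dashed line. Shaded blocks group the genes by role. Pdk4 and Eno3 sit lower in all 3 pRb-deficient cultures, Eno2 and Egln3 higher, and for Ldha the 2 groups overlap.

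The hypoxia genes were higher without exception. Hif1a encodes the oxygen-regulated subunit of HIF-1, and its signal was 3842, 3551 and 3771 in pRb-expressing and 7085, 7354 and 6895 in pRb-deficient cultures. The groups were far apart and the cultures of each were close together, which gave a 1.91-fold difference (log2 fold change 0.93 with a standard error of 0.06, adjusted p = 6.95e-05). Of 3 further Hif1a probe sets, 2 were also higher, at log2 fold changes of 0.61 and 1.22. The dimmest was lower (log2 fold change −0.61, adjusted p = 0.0353). It was the only probe set of the 21 genes that passed in the direction opposite to its gene.

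Egln3 encodes a prolyl hydroxylase that marks HIF subunits for destruction and is itself a known HIF target. Its signal was 107, 88.3 and 51.8 in pRb-expressing and 310.0, 496 and 746 in pRb-deficient cultures, 6.18-fold higher (log2 fold change 2.63 with a standard error of 0.39, adjusted p = 0.00202). The pRb-deficient cultures differed among themselves, yet the lowest of them was well above every pRb-expressing culture. A second Egln3 probe set had a log2 fold change of 2.32. Since Egln3 was dim in pRb-expressing cultures, the size of its change depends on the floor, and with a floor of 100 the brightest probe set gave 2.25. Bnip3, a mitochondrial protein of mitophagy and cell death, was measured at 1179, 1256 and 1185 against 2435, 2876 and 4017. It was 2.52-fold higher, with no overlap (log2 fold change 1.33 with a standard error of 0.17, adjusted p = 0.00108).

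HIF-1 binds a short core sequence in DNA, so the promoter windows of the genes were searched for it. The windows are the 300 bases around each RefSeq start site, 250 before it and 50 after it, in the mouse assembly GRCm38.p6. ACGTG and GCGTG were searched on both strands, so that CACGT and CACGC also count, and ACGTG overlaps the E-box CACGTG. The core was present in 39 of the 51 windows of the 38 genes (76.5%). Among all 32851 mouse promoter windows it was present in 43.8%, and among windows of tested genes whose mean signal reached 200 or more in 63.8%. By direction, it was present in 14 of 19 windows of genes that were higher (73.7%), in 7 of 8 of genes that were lower (87.5%) and in 17 of 22 of genes that did not pass (77.3%). A match of 5 letters is a description and not a binding site. The windows below belong to 3 genes that were higher, with at least 2 matches each, and to the gene with the largest decrease, Pdk4. They are examples, and windows of other higher genes with as many or more matches are not printed, among them Slc16a1 (5), Pfkp (4) and Hif1a (3). Matches are in capitals and the strand is that of the gene. Bnip3 lies at chr7:138909457-138909756 on the minus strand, with 5 matches, Slc2a1 at chr4:119108495-119108794 on the plus strand, with 2, Pgk1 at chrX:106186850-106187149 on the plus strand, with 2, and Pdk4 at chr6:5496229-5496528 on the minus strand, with 1.
Bnip3: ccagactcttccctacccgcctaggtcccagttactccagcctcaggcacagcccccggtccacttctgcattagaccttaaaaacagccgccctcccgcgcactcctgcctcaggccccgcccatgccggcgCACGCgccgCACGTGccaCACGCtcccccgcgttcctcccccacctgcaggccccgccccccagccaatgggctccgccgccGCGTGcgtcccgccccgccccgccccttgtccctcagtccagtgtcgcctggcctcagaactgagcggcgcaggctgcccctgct
Slc2a1: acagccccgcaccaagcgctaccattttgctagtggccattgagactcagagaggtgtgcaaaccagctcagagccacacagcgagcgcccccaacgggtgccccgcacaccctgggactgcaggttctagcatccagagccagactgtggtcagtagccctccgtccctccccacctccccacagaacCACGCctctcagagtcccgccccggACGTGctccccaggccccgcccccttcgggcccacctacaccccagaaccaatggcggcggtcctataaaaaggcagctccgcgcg
Pgk1: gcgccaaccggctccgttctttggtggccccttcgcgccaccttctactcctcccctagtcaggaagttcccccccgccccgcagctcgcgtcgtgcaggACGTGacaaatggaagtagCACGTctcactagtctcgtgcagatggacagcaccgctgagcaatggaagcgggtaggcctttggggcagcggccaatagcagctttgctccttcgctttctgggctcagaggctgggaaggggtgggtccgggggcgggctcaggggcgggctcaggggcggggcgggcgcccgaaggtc
Pdk4: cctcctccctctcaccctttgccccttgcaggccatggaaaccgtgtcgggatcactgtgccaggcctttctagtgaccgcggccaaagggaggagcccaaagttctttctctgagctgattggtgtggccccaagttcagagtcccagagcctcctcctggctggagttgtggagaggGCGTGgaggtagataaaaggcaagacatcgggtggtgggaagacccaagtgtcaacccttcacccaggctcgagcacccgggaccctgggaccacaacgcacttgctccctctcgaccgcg
In Bnip3 2 of the matches overlap within 1 CACGTG, and the Eno2 window holds no match. The full E-box CACGTG was present in 7 of the 51 windows (13.7%, against 7.15% of all windows and 10.3% of windows of the brighter tested genes described above). The E2F motifs TTTGGCGC and TTTCGCGC, searched on both strands because pRb acts on E2F factors, were in none of the 51 windows, against 0.813% of all windows and 1.65% of those of the brighter tested genes. With motifs this rare, 51 windows can easily hold none, so nothing is concluded from this count.

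The other genes of the oxygen response were mixed at the level of the sensors and mostly higher among known targets. Of 8 sensing genes, 2 were higher (25%, against 18.5% of all genes), 3 lower (37.5%, against 23.4%) and 3 did not pass. Arnt2, a partner subunit of HIF, rose from 93.7, 66.0 and 51.3 to 539, 486 and 267 (log2 fold change 2.59 with a standard error of 0.34, adjusted p = 0.00114), and the prolyl hydroxylase gene Egln1 was also higher (log2 fold change 0.79, adjusted p = 0.00296). Lower were Vhl (−0.73, adjusted p = 0.000894), whose product tags HIF subunits for degradation, and Hif3a (−0.55, adjusted p = 0.0116). Epas1, the subunit of HIF-2, was lower at signals of 122 or less.

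Among 25 known hypoxia-induced genes outside glycolysis, 15 were higher (60% of the list, against 18.5% of all genes). Another 4 were lower (16%, against 23.4%) and 6 did not pass, with a median log2 fold change of 0.93 over the list. The list was chosen with earlier results of these data known, so these shares are a description and not a test. Vegfa, the growth factor of blood vessels, was at 562, 576 and 549 in pRb-expressing and 2304, 1869 and 1867 in pRb-deficient cultures (log2 fold change 1.83 with a standard error of 0.10, adjusted p = 2.81e-05). Plod1, a collagen lysyl hydroxylase, had a log2 fold change of 1.73, adjusted p = 2.81e-05, the secreted glycoprotein gene Stc1 one of 1.73, adjusted p = 0.00089, and Car9, a carbonic anhydrase of the cell surface, one of 2.10, adjusted p = 0.00544 with 1 pRb-expressing array below the floor. On the side of the 4 that were lower, Bhlhe40, a transcriptional repressor, had a log2 fold change of −0.83, adjusted p = 0.000209, and P4ha2, a subunit of collagen prolyl hydroxylase, one of −0.77, adjusted p = 0.00109. The collagen cross-linking oxidase Lox (−0.36) and P4hb (−0.23) were lower by less. P4ha2 and P4hb lie on chromosome 11 and Bhlhe40 on chromosome 6, where the median log2 fold changes of all tested genes were −0.39 and −0.37. P4hb was less lowered than the median of its chromosome, and the part of these medians was not tested. Adm (0.33, adjusted p = 0.539) and Ddit4 (−0.18, adjusted p = 0.539), also classical hypoxia genes, did not pass. Genes of collagen modification thus passed in both directions. Without pRb-expressing replicate 1, pRb-expressing replicate 2 or pRb-deficient replicate 2, only 2 genes of the list were lower.

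**Figure D2:**
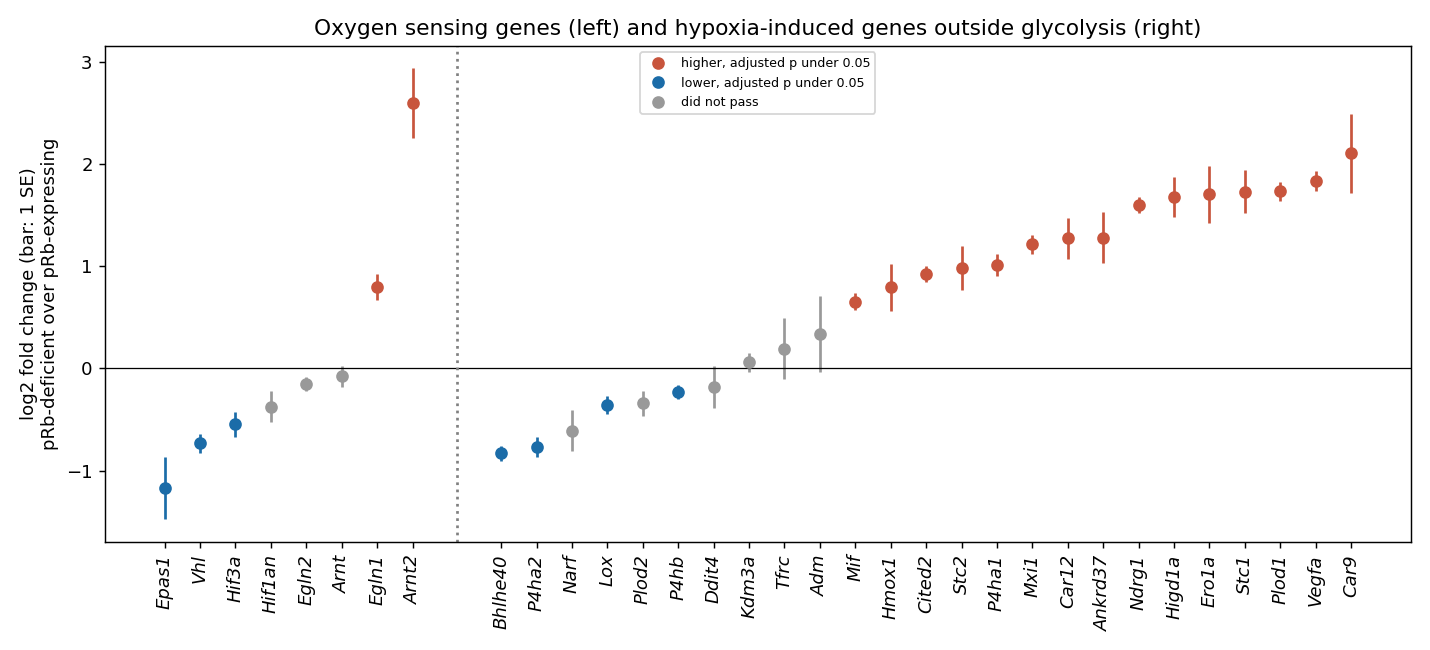
Log2 fold change with its standard error (bars) of 8 oxygen sensing genes, left of the dotted line, and 25 known hypoxia-induced genes outside glycolysis, right of it, in order of the change within each list. Red points were higher, blue points lower and gray points did not pass at an adjusted p under 0.05. Among the genes on the right, 15 are red and 4 blue.

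Glucose enters by facilitated transport and is trapped by hexokinase. Slc2a1, which encodes the glucose transporter GLUT1, had signals of 922, 804 and 811 in pRb-expressing and 2188, 2644 and 3333 in pRb-deficient cultures. All pRb-deficient cultures lay far above all pRb-expressing cultures, and the fold was 3.18 (log2 fold change 1.67 with a standard error of 0.15, adjusted p = 0.000242). Its other probe sets also passed in the same direction, the second brightest at a log2 fold change of 1.68. Neither hexokinase gene passed. Hk1 overlapped between groups (log2 fold change 0.25, adjusted p = 0.208), and Hk2 was above the pRb-expressing range in all pRb-deficient cultures but by a small margin (0.20, adjusted p = 0.0745).

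Phosphofructokinase commits sugar to glycolysis and exists as liver (Pfkl), muscle (Pfkm) and platelet (Pfkp) types. Pfkl was at 1273, 1310.2 and 1330.0 in pRb-expressing and 3109, 4403 and 4826 in pRb-deficient cultures, 3.1-fold higher (log2 fold change 1.63 with a standard error of 0.16, adjusted p = 0.000302). Of its other probe sets, 1 was higher as well (1.27) and a dim one was not changed past the threshold (0.01). Pfkp was at 1137, 1153 and 1211 against 1583, 1838 and 1717, a smaller difference without overlap (log2 fold change 0.55 with a standard error of 0.08, adjusted p = 0.00159). The muscle type Pfkm, at 1142, 1249.9 and 1221 against 1369.6, 1220.2 and 1423, overlapped between groups and did not pass (0.15, adjusted p = 0.222). The difference between groups in the log2 ratio of Pfkm to Pfkl was −1.48, and in that of Pfkp to Pfkl −1.08, without overlap in either case. With 3 cultures against 3 the smallest two-sided exact permutation p is 0.10, which both ratios had (0.144 adjusted over 13 such pairs of related genes). Over the 13 pairs, the groups did not overlap in 9 ratios, of which 8 were lower in pRb-deficient cultures and 1, Pygl to Pygb, was higher (0.29, with Pygl near the floor). The other 4 ratios overlapped, namely Hk2 to Hk1, Pfkfb3 to Pfkfb4, Aldoc to Aldoa and Pgam2 to Pgam1. Which gene of a pair was set as the divisor fixed the direction of its ratio, so the split of 8 and 1 carries no information. In Eno3 to Eno2, Pdk2 to Pdk1, Pdk4 to Pdk1 and Slc16a3 to Slc16a1, the genes of the pair were apart in opposite directions. Their ratios therefore could not overlap, and they add nothing to the values of the single genes. Pfkl and Pdk1 were each the divisor of several pairs, and the share without overlap among other gene pairs was not computed.

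The bifunctional enzymes Pfkfb3 and Pfkfb4 set the level of the activator of phosphofructokinase. Pfkfb4 was lower, at 427, 379.6 and 419 in pRb-expressing and 314, 319.9 and 291 in pRb-deficient cultures (log2 fold change −0.40 with a standard error of 0.11, adjusted p = 0.0254). The groups did not touch, but the difference was small and the call was lost in 6 of 19 alternative settings, among them without pRb-expressing replicate 1 (adjusted p = 0.0735), without pRb-expressing replicate 3 (0.0705) and without pRb-deficient replicate 2 (0.0511). Pfkfb3 was dim and scattered, and did not pass (−0.43, adjusted p = 0.491).

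Of the 9 genes from aldolase to pyruvate kinase, 4 were higher, 1 lower and 4 did not pass. These are 44.4% higher and 11.1% lower, against 18.5% and 23.4% of all genes. Pkm, the pyruvate kinase gene of most tissues, had signals of 6589, 7118 and 6065 in pRb-expressing and 11464, 13248 and 13637 in pRb-deficient cultures, and the fold was 1.94 (log2 fold change 0.95 with a standard error of 0.10, adjusted p = 0.00037). Aldoa, the main aldolase, was higher (log2 fold change 0.62, adjusted p = 0.00358), in 4 of its 5 probe sets. Pgk1, phosphoglycerate kinase, was 1.43-fold higher (log2 fold change 0.52, adjusted p = 0.00149), and its other probe sets gave 0.76 and 2.11. The Pgk1 window printed above lies on the X chromosome, and Xist differed between the groups as given above. Its part in the values of Pgk1, Pdha1 and Pdk3, the 3 X-linked genes measured, was not tested. Tpi1 (0.20, adjusted p = 0.4), Pgam1 (0.21, adjusted p = 0.236), the dim muscle form Pgam2 (0.37, adjusted p = 0.163) and Aldoc (0.44, adjusted p = 0.423) overlapped between groups.

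The enolase genes moved in opposite directions. Eno2, the form known from neurons, was at 76.9, 48.1 and 58.1 in pRb-expressing and 415, 324 and 277 in pRb-deficient cultures, 5.58-fold higher (log2 fold change 2.48 with a standard error of 0.25, adjusted p = 0.00037). Eno3, the form known from muscle, was at 1059, 1034 and 1103 against 422, 466 and 423, 2.44-fold lower (log2 fold change −1.29 with a standard error of 0.08, adjusted p = 5.26e-05). All 3 pRb-deficient cultures lay on the far side of all pRb-expressing cultures for both genes. In the log2 ratio of Eno3 to Eno2 the groups differed by −3.77 (exact two-sided permutation p = 0.10, the smallest possible). With the genes apart in opposite directions, this p was fixed by their separate values and is no further support. Each was read from 1 probe set. Eno2 was dim in pRb-expressing cultures, and with a floor of 100 its log2 fold change was 1.74. The size of its change and of the ratio thus depends on the floor.

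Since these isoforms are known from neurons and muscle, markers of those cells are given beside them. The shares over all genes were 18.5% higher and 23.4% lower. Of 4 tested neuronal markers, Map2 was higher, Tubb3 lower and 2 did not pass, and Snap25 was at or below 32 on every array. The summed neuronal signal was 544 to 707 in pRb-expressing and 524 to 588 in pRb-deficient cultures. None of 6 tested skeletal muscle markers passed, Myf5 was at or below 32 on every array, and the summed signal was 568 to 774 and 622 to 718. Of 4 tested smooth muscle markers, Cnn1 and Tagln were higher and 2 did not pass, Des with overlap and Acta2 with every pRb-deficient culture below the pRb-expressing range (−0.24, adjusted p = 0.081). Myh11 was at or below 32 on every array, and the summed signal was 23071 to 25613 in pRb-expressing and 26717 to 31869 in pRb-deficient cultures.

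A further list holds other genes of glycolysis and pyruvate handling. Of 24 measured, 7 were higher (29.2%, against 18.5% of all genes), 3 lower (12.5%, against 23.4%) and 14 did not pass. The median log2 fold change was 0.30. Pdhb, the beta subunit of the first enzyme of pyruvate dehydrogenase, was at 2320.0, 2451 and 2297 in pRb-expressing and 5421, 4874 and 4291 in pRb-deficient cultures (log2 fold change 1.04 with a standard error of 0.09, adjusted p = 0.000228). Bpgm, which makes bisphosphoglycerate (0.74, adjusted p = 0.0141), the ADP-dependent glucokinase Adpgk (0.51, adjusted p = 0.00729) and Dlat, the second enzyme of the complex (0.44, adjusted p = 0.0134), were higher too. Pdp1, the phosphatase that reactivates pyruvate dehydrogenase, was lower (−1.33, adjusted p = 9.63e-05), as were Pdhx (−0.85, adjusted p = 0.00123) and pyruvate carboxylase, Pcx (−0.26, adjusted p = 0.019).

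Pyruvate becomes lactate through lactate dehydrogenase, built from A (Ldha) and B (Ldhb) subunits, and leaves through monocarboxylate transporters. Ldha was bright in every culture and did not pass, at 12140.4, 12679 and 11964 in pRb-expressing and 9786, 13851 and 15623 in pRb-deficient cultures (0.07, adjusted p = 0.796, 95% confidence interval −0.33 to 0.46). Ldhb was at 509, 521 and 448 against 264, 302 and 303, 1.7-fold lower (log2 fold change −0.77 with a standard error of 0.12, adjusted p = 0.00227). The pRb-deficient cultures enclosed the pRb-expressing range for Ldha and lay below it for Ldhb. All 3 further Ldhb probe sets were lower too, by log2 fold changes of −1.58, −1.58 and −0.90. In the log2 ratio of Ldhb to Ldha the groups differed by −0.83, without overlap (exact two-sided permutation p = 0.10).

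Slc16a1, which encodes the lactate transporter MCT1, was at 934, 975 and 1149.8 in pRb-expressing and 2156, 2191 and 2601 in pRb-deficient cultures. The 2.27-fold difference passed (log2 fold change 1.18 with a standard error of 0.11, adjusted p = 0.00027). Slc16a3, which encodes MCT4, was dim, at 67.1, 97.7 and 84.6 against 48.6, 57.3 and 60.1. Its groups did not overlap, with the pRb-deficient cultures below, but it did not pass (−0.58, adjusted p = 0.0715). The log2 ratio of Slc16a3 to Slc16a1 differed by −1.76 without overlap, with the same permutation p. This outcome was fixed, since the genes were apart in opposite directions.

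The entry of pyruvate into the mitochondrial cycle is closed by pyruvate dehydrogenase kinases, which inactivate the enzyme by phosphorylation. Of their 4 genes, 2 were lower, 1 was higher and 1 did not pass, where 23.4% of all genes were lower and 18.5% higher. Pdk4, known for its induction in fasting, was at 2609, 2578 and 2133 in pRb-expressing and 199, 173 and 138 in pRb-deficient cultures. It was 14.5-fold lower, the largest difference of the 36 genes (log2 fold change −3.85 with a standard error of 0.16, adjusted p = 1.00e-05). Pdk2 was at 444, 458 and 434 against 319, 241 and 214, 1.75-fold lower (log2 fold change −0.81 with a standard error of 0.16, adjusted p = 0.00806). Its call was lost in 2 of 19 alternative settings, among them without pRb-expressing replicate 2 (adjusted p = 0.0512). Both genes were lower in every pRb-deficient culture than in any pRb-expressing one.

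Pdk1, a known HIF target, was higher, at 445, 371 and 482 in pRb-expressing and 661, 780.0 and 1235 in pRb-deficient cultures (log2 fold change 1.00 with a standard error of 0.23, adjusted p = 0.0149). The groups did not overlap, and pRb-deficient replicate 3 was well above the other two. The call was lost in 8 of 19 alternative settings, among them without pRb-expressing replicate 1, 2 or 3 (adjusted p = 0.0726, 0.0966 and 0.0527) and without pRb-deficient replicate 2 (0.0572). Its probe sets also differed, with log2 fold changes of 0.42, which did not pass, and 2.37, which did, and no change past the threshold in the dimmest. Pdk3 was at 1239, 1088 and 1111 against 862, 1015 and 1121 and overlapped (−0.20, adjusted p = 0.222).

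Relative to Pdk1, the other kinases were all lower in pRb-deficient cultures, with differences in log2 ratio of −4.85 for Pdk4, −1.81 for Pdk2 and −1.20 for Pdk3. The groups did not overlap in these 3 ratios (exact two-sided permutation p = 0.10 for each, the smallest possible). For Pdk4 and Pdk2 this was fixed by the single genes, each lower without overlap while Pdk1 was higher without overlap. Pdha1, the alpha subunit that the kinases phosphorylate, was slightly lower, 1.21-fold (log2 fold change −0.28, adjusted p = 0.00826), and its second probe set gave −0.58. The Pdha1 call was lost in 3 of 19 alternative settings, among them with each array centred on its median (adjusted p = 0.0763) and without the trend on intensity (0.0504).

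**Figure D3:**
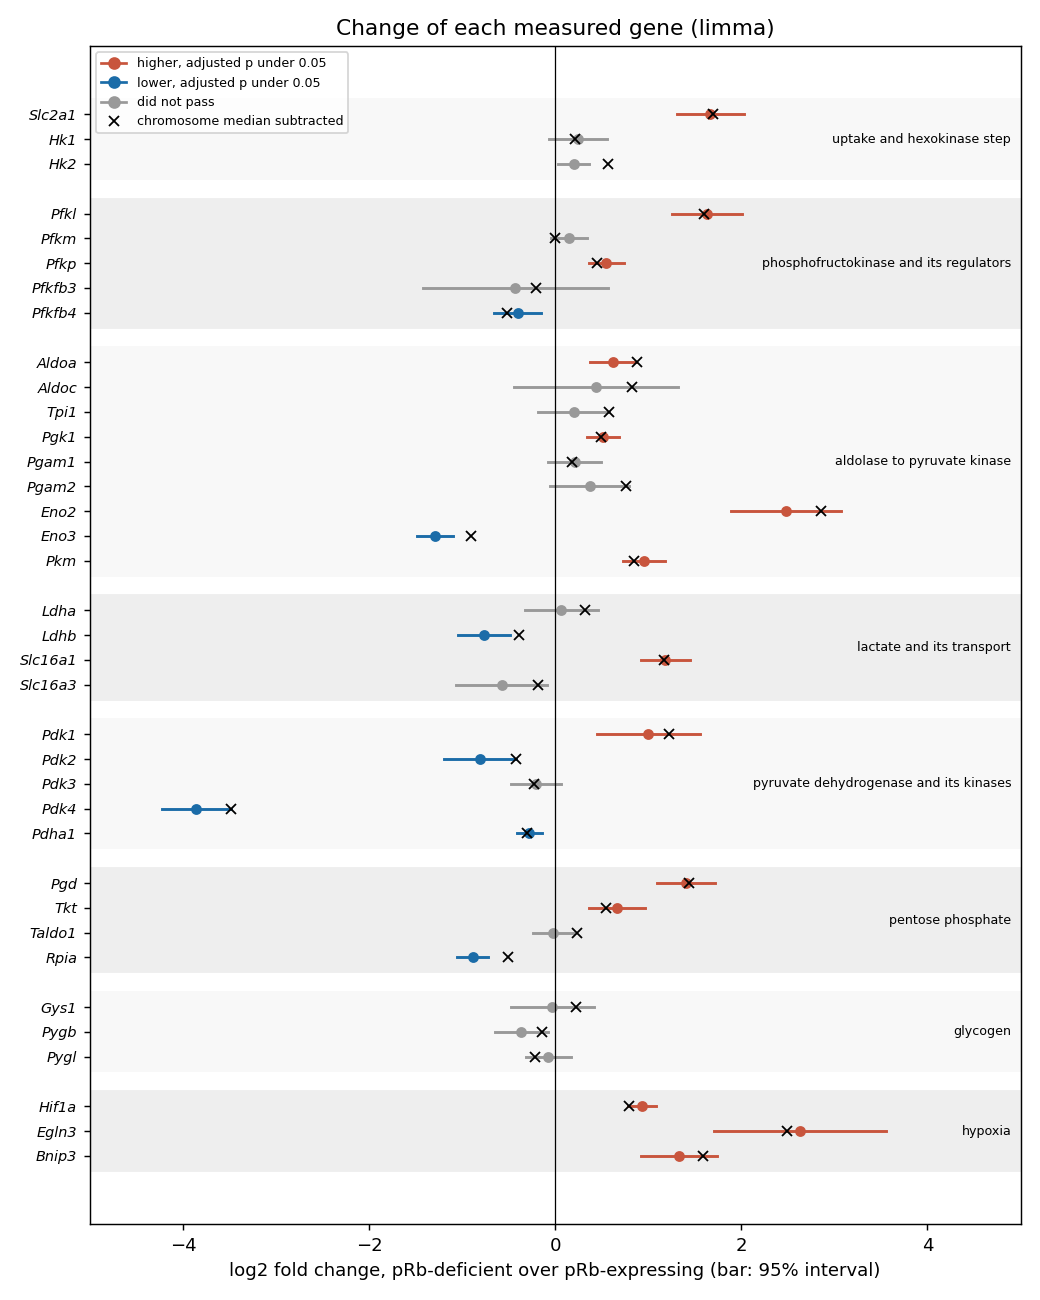
Log2 fold change of each of the 36 genes, grouped by role, with its 95% confidence interval (bars) from limma, in red where higher, blue where lower and gray where not past an adjusted p of 0.05. Crosses give the same value with the median of the gene's chromosome subtracted. Changes reach from −3.85 for Pdk4 to 2.63 for Egln3, and no gene that passed changed its sign with the chromosome median removed.

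The pentose phosphate pathway has an oxidative and a non-oxidative branch. Pgd, the second dehydrogenase of the oxidative branch, was at 1428, 1481 and 1366 in pRb-expressing and 3114, 3872 and 4471 in pRb-deficient cultures. It was 2.65-fold higher (log2 fold change 1.41 with a standard error of 0.13, adjusted p = 0.000248), and all 4 of its probe sets were higher, by 1.41 to 1.87. In the non-oxidative branch, Rpia, which isomerizes ribose 5-phosphate, was at 1517, 1516 and 1651 against 864, 821 and 849, 1.85-fold lower (log2 fold change −0.89 with a standard error of 0.07, adjusted p = 0.000124). Neither gene overlapped between groups, and the cultures were tightly grouped for Rpia. Transketolase, Tkt, was higher (log2 fold change 0.66, adjusted p = 0.00603), and transaldolase, Taldo1, overlapped (−0.03, adjusted p = 0.854). The Tkt call was lost in 2 of 19 alternative settings, among them without pRb-expressing replicate 2 (adjusted p = 0.0517).

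Of 8 other pentose phosphate genes, 2 were higher (25%, against 18.5% of all genes), 2 lower (25%, against 23.4%) and 4 did not pass. H6pd, the glucose 6-phosphate dehydrogenase of the endoplasmic reticulum, had a log2 fold change of 0.94, adjusted p = 0.00299, and Prps2, a synthetase of the nucleotide precursor PRPP, one of 0.59, adjusted p = 0.00184. Its relative Prps1 was lower (−0.56, adjusted p = 0.00627), and so was Rpe, the epimerase that acts beside Rpia (−0.83, adjusted p = 0.000374).

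Glycogen is built by glycogen synthase (Gys1) and broken down by phosphorylases (Pygb, Pygl). None of these 3 genes passed. Gys1 was at 344, 487 and 464 against 454, 478 and 337 and overlapped (−0.03, adjusted p = 0.926). Pygb was below the pRb-expressing range in every pRb-deficient culture but missed the threshold (−0.36, adjusted p = 0.0527), which it passed in 7 of 19 alternative settings. Pygl was at or below 32 on 4 of the 6 arrays (−0.08, adjusted p = 0.619).

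Among 16 other glycogen genes tested, 2 were higher, 5 lower and 9 did not pass. Of the 17 measured, 11.8% were higher and 29.4% lower, against 18.5% and 23.4% of all genes. Stbd1, a protein that tethers glycogen to membranes, was at 265, 317 and 301 in pRb-expressing and 3582, 1858 and 1008 in pRb-deficient cultures (log2 fold change 2.68 with a standard error of 0.41, adjusted p = 0.00234). The dim targeting subunit Ppp1r3c was the other that was higher. Lower were Ppp1r3b (−0.95, adjusted p = 0.0405), the lysosomal glucosidase Gaa (−0.90, adjusted p = 0.00439), Ugp2, which makes UDP-glucose (−0.87, adjusted p = 8.93e-05), the glycogen synthase kinase Gsk3b (−0.48, adjusted p = 0.0314) and Phkb.

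Many of these genes were measured by more than 1 probe set, which gives a second reading of the same RNA. The 36 genes had 71 probe sets, and 18 genes had more than 1. For the 13 genes that passed and had several, 21 of 29 further probe sets passed in the same direction, 6 did not pass, 1 passed in the other direction and 1 was not tested. The brightest probe sets of Aldoa, Tpi1, Pgk1 and Tkt carry the suffix x_at, which marks probes that may also bind related transcripts.

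**Figure D4:**
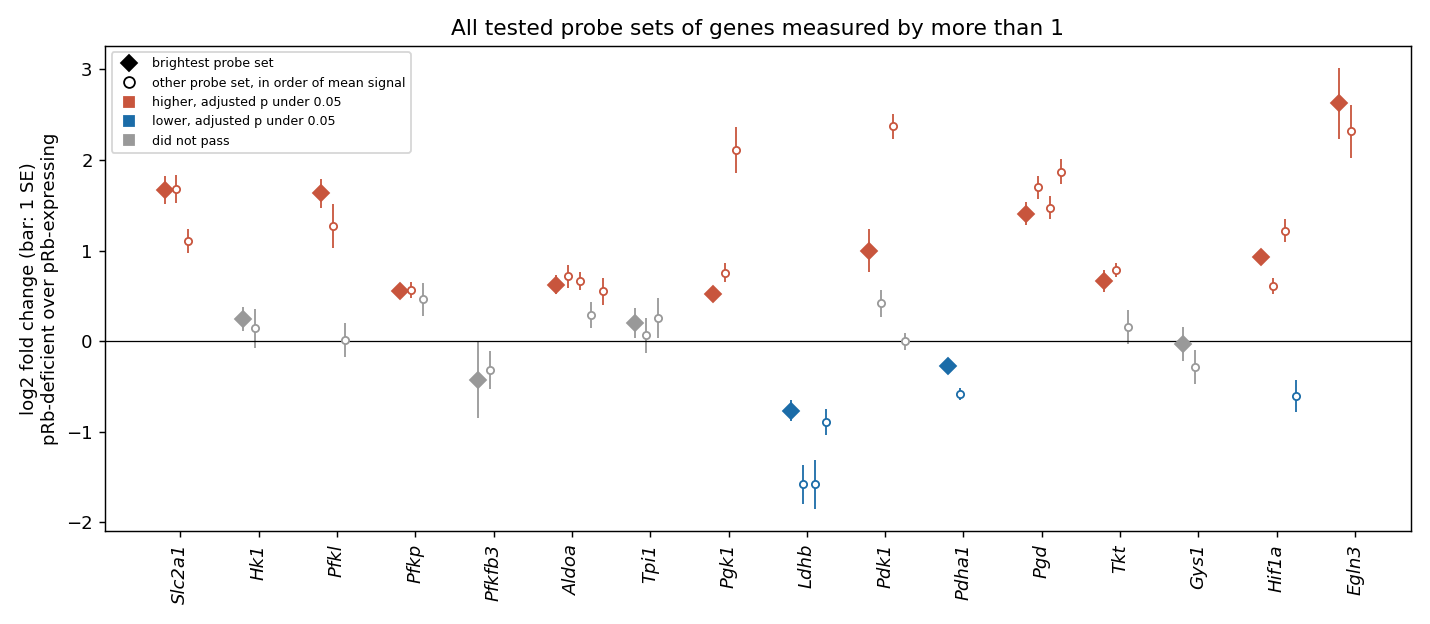
Log2 fold change with its standard error (bars) of every tested probe set of the genes measured by more than 1, with the brightest as a filled diamond and the others as open circles in order of mean signal. Red was higher, blue lower and gray did not pass at an adjusted p under 0.05. Pgd and Ldhb are in 1 direction in all 4 probe sets each, while Pdk1 spreads from about 0 to 2.37.

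The pRb-deficient cultures were not alike in these genes. Replicate 1 was the lowest of the 3 in 12 of the 14 genes that were higher (85.7%) and in 22 of all 36 (61.1%), against 35.0% of all genes tested. Replicate 3 was the highest in 9 of the 14 (64.3%) and 19 of the 36 (52.8%), against 35.9%. The median difference of replicate 3 over replicate 1 was 0.28 in log2 signal for the genes that were higher and 0.00 for all genes. Of the 15 genes that did not pass, 8 (53.3%) had their lowest pRb-deficient signal in replicate 1, among them Ldha, Tpi1, Pgam1 and Hk1. Without that culture Hk1 (log2 fold change 0.39, adjusted p = 0.0288) and Tpi1 (0.38, adjusted p = 0.0461) passed. Leaving out the lowest culture of a group must raise its mean, so these larger changes follow from the choice of culture.

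Some stress genes were ordered the other way in the same cultures. Ddit3, a transcription factor of the unfolded protein response, was at 1138, 1184 and 1179 in pRb-expressing and 7892, 2514 and 1211 in pRb-deficient cultures. Trib3 was at 3050.0, 1518 and 481 and Atf3 at 1020.1, 463 and 132 in pRb-deficient cultures. Replicate 1 was highest and replicate 3 lowest for all 3, and none of the 3 passed the test between groups. Over the whole list of 8 stress genes, 4 had this order, with Asns as the fourth. Jun had the reverse order, at 4481, 6460.0 and 7105 in pRb-deficient cultures, and the other 3 had neither, with Hspa1b lowest in replicate 1 and Hspa1a and Fos highest in replicate 2. Of the 8 genes, 3 were higher (37.5%) and 1 lower (12.5%), against 18.5% and 23.4% of all genes. Their summed signal was 13570 to 14612 in pRb-expressing and 18585 to 28150 in pRb-deficient cultures. The part of this difference between cultures in the glycolytic values was not tested.

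**Figure D5:**
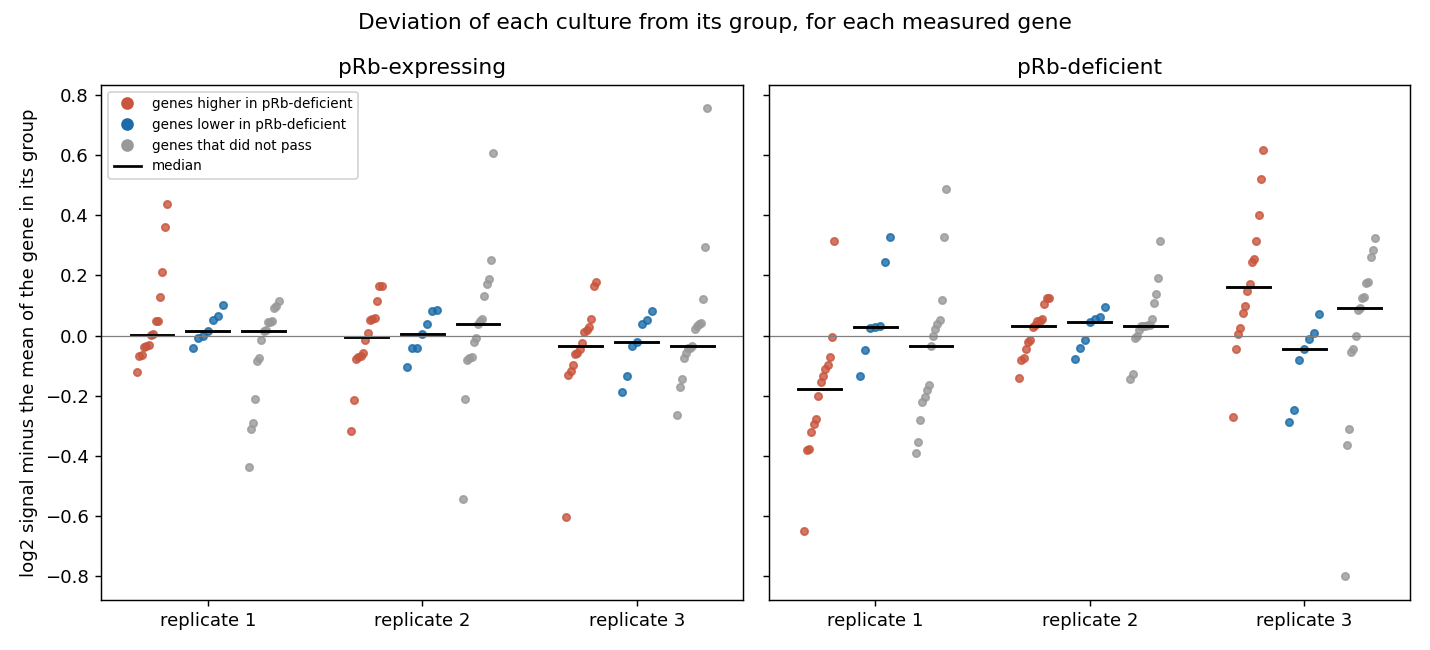
Log2 signal of each of the 36 genes in each culture minus the mean of that gene in its group, for pRb-expressing (left) and pRb-deficient cultures (right), in log2 units. Red points are the 14 genes that were higher, blue points the 7 that were lower and gray points the 15 that did not pass, with black lines at the median of each set. Most red points lie below 0 in pRb-deficient replicate 1 (lowest of 3 in 12 of 14).

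Chromosomes also differed as a whole, with median log2 fold changes on the autosomes and X from −0.39 on chromosome 11 to 0.15 on chromosome 15, and a median of −0.66 over 9 genes of the Y chromosome. Eno3 and Pdk2 lie on chromosome 11 and Pdk4, Ldhb, Rpia and Eno2 on chromosome 6, whose median was −0.37. With the chromosome median subtracted, the log2 fold change was −0.90 for Eno3, −0.42 for Pdk2, −3.48 for Pdk4, −0.39 for Ldhb, −0.51 for Rpia and 2.85 for Eno2. All 21 genes that passed kept their sign. The part of these chromosome medians in the values of single genes was not tested.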

How the data were processed

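RNA of 3 pRb-expressing and 3 pRb-deficient cultures was hybridized by the authors to Affymetrix Mouse Genome arrays. The deposited intensity values are linear MAS5 signals that the authors scaled on every array to a trimmed mean of 500. Their methods name Affymetrix Microarray 5.0 software, and the submitters' processing notes Affymetrix Expression Console 1.1 and MAS5. The table holds no detection calls, and the number of arrays limits the precision. The median signal per array was 107.7 to 119.5, and 24.4% to 26.6% of probe sets were at or below 32.

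Of 45101 probe sets, 64 controls and 6610 at or below 32 on every array were left out, so 38427 were tested. Signals below 32 were set to 32 and all were converted to log2. Group was the single term of a linear model in limma 3.58.1 under R 4.3.3 (lmFit, then eBayes with its trend on intensity), which left 4 residual degrees of freedom. Two-sided p-values underwent Benjamini-Hochberg adjustment over all probe sets tested, and 0.05 was the threshold. The steps were tested on simulated data. Ratios of related genes were compared with an exact permutation test.

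Genes were named from the array's annotation table, in which 34945 probe sets had 1 symbol, 932 had several and 9160 had none. Promoter windows are RefSeq's for GRCm38.p6, used for sequence and chromosomes, since the sources used here name no build. The genes and all lists (other glycolysis, pentose phosphate, glycogen, oxygen sensing, hypoxia-induced genes, cell type and stress markers) were chosen with earlier results of these data known. Every gene of the set is named with its outcome, with all signals for Hif1a, for genes past the threshold with an absolute log2 fold change of at least 1 and for the phosphofructokinase, enolase, lactate dehydrogenase, lactate transporter and pyruvate dehydrogenase kinase genes. Per list, up to 4 genes past the threshold in each direction with the largest change and a mean of at least 200 in the higher group were named. Other genes were named after their values were seen. The marker lists not described above gave no passing gene for adipocytes (4 tested) and endothelium (4), 1 higher and 2 lower for chondrocytes (4), and 2 higher and 1 lower for hematopoietic cells (5). Among all genes tested, 18.5% were higher and 23.4% lower.

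Same-numbered cultures were not taken as pairs, since nothing in the labels says that the replicate numbers pair them. After removal of group means they correlated at 0.02, −0.03 and 0.06. Alternatives were other floors, filters, pseudocounts, normalizations and variance models, array weights, a minimum change of 1.5-fold, the methods' rank statistic, a replicate block, other probe sets, leaving out each array and removal of chromosome medians. Counts for the hypoxia and other glycolysis lists under these settings were added after the data had been seen.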

Additional observations from a re-analysis of the deposited data

How the results depend on the processing

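Of the 21 genes that passed, 12 kept direction and call under every alternative that was tested gene by gene, and 9 of the 15 others stayed below the threshold in all of them. No gene past the threshold changed direction. With a minimum change of 1.5-fold, 3989 probe sets in place of 13433 passed over the whole array, with 9 of the 36 genes higher and 3 lower. The rank statistic that the methods name, with a permutation false discovery rate, called 0 probe sets, 0 genes higher and 0 lower, since with 3 against 3 arrays the smallest exact permutation p is 0.10 and the 17706 probe sets with the most extreme rank sum had a false discovery rate of 19.5%. A fit with the replicate block called 12367 probe sets and 14 genes higher, and the call of Pfkfb4 was lost (adjusted p = 0.0713). It changed no other call among genes past the threshold, while Pygb passed (adjusted p = 0.0447). Leaving out single arrays gave 10149 to 12960 probe sets, 12 to 16 genes higher and 6 to 7 lower. Of the hypoxia-induced list, 13 to 15 genes were higher without single arrays and 10 with the minimum of 1.5-fold, where none was lower. Of the other glycolysis genes that minimum left 1 higher and 1 lower. The number of arrays, dim signals (Pygl, Pgam2, Slc16a3, and Eno2 and Egln3 in pRb-expressing cultures) and the open origin of the cultures limit these values.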

Other observations

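Among the wider pathway genes, some had the same order of pRb-deficient cultures as the stress genes Ddit3, Trib3, Atf3 and Asns, with replicate 1 highest and replicate 3 lowest. The glycogen tether Stbd1 was at 3582, 1858 and 1008, the oxidase Ero1a at 4802, 3139 and 2057 and Pck2, the mitochondrial enzyme that makes phosphoenolpyruvate, at 3171, 2182 and 1118 in replicates 1, 2 and 3. Higd1a, a mitochondrial protein induced by hypoxia, ran the opposite way at 3723, 4844 and 6648, as did the transferrin receptor gene Tfrc at 1333, 1969 and 3325. Pck2 was at 1420.2, 1658 and 1615 in pRb-expressing cultures and did not pass (0.34, adjusted p = 0.5). Over the 15 hypoxia-induced genes that were higher, replicate 1 was the lowest in 7 and the highest in 7. These genes were picked after their values were seen.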
